A study of Mus musculus with 8 samples.

Results

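The genes described here are the adaptor MyD88 and 9 signalling proteins that act with it or in parallel to it below the Toll-like receptors. They are the IRAK family of kinases and pseudokinases (Irak4, Irak1, Irak2 and Irak3), the kinases encoded by Map3k7, Map3k8, Tbk1 and Ikbke, and the ubiquitin ligase encoded by Traf6. The 10 genes were matched by name, with no threshold on their values, among the 25006 gene names in the expression table, and all 10 passed the filter on low values. They were measured in dendritic cells grown from bone marrow of C57BL/6 mice with GM-CSF (20 ng/ml) and IL-4 (10 ng/ml). There were 2 genotypes. IFNAR;RelB-DBDB mice carry a knockout of the type I interferon receptor IFNAR on top of the RelB alleles, as the series design states, and RelB-DBDB mice carry the RelB alleles alone (RelB is a subunit of NF-κB, and the labels do not spell out DBDB). All groups compared therefore carry the RelB allele, and there is no wild-type group among the 8 libraries. Each genotype was left as a control (labelled 1 h) or given 0.1 µM CpG ODN 1668, a DNA oligonucleotide that activates TLR9, for 1, 3 or 8 h, with 1 library for each genotype and condition.

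Endosomal TLR9 binds DNA with unmethylated CpG motifs and recruits MyD88, on which IRAK4 and then IRAK1 or IRAK2 assemble. The IRAK proteins engage TRAF6, a ligase that builds ubiquitin chains, and these chains activate TAK1 (encoded by Map3k7), which switches on the IKK complex and MAP kinases. TPL2 (Map3k8) drives the ERK branch, IRAK3 (also called IRAK-M) restrains the pathway in macrophages, and the IKK-related kinases TBK1 and IKKε (Ikbke) phosphorylate IRF3 and IRF7, the factors that start interferon transcription.

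The IFNAR;RelB-DBDB libraries held 3711818 to 11977778 reads and the RelB-DBDB libraries 6159951 to 37221530 reads, and the lowest count of any member was 118 reads, for Irak3 in RelB-DBDB cells at 1 h. Levels are given in CPM, the reads of a gene scaled to a library total of 1000000. No control was labelled 3 or 8 h, so that the effects of CpG and of longer culture at those times cannot be told apart. Tnf, the inflammatory cytokine used here as a readout of the CpG response, stood at 374 to 432 CPM in the CpG-treated IFNAR;RelB-DBDB cells against 10.6 CPM in their control, and at 298 to 411 CPM in the CpG-treated RelB-DBDB cells against 8.08 CPM in their control. Isg15, an interferon-stimulated gene, reached 23.7 CPM in IFNAR;RelB-DBDB cells and 397 CPM in RelB-DBDB cells at 8 h. Ifnar1 was listed at 56.1 to 102 CPM in IFNAR;RelB-DBDB cells and 102 to 127 CPM in RelB-DBDB cells, and since the deleted stretch is not given, a gene-level value does not check the knockout. The 7 dendritic cell markers summed to 11189 to 12810 CPM in IFNAR;RelB-DBDB cells and 7268 to 11685 CPM in RelB-DBDB cells. Of 4 markers of plasmacytoid dendritic cells, 3 reached 1 CPM in some library, and the 4 summed to 90.3 to 117 CPM in IFNAR;RelB-DBDB cells and 103 to 307 CPM in RelB-DBDB cells. Among these Siglech was at 0 in 6 of the 8 libraries and at most 0.255 CPM in the others, while Tcf4 and Bst2 were highest in RelB-DBDB cells at 8 h, at 137 and 168 CPM. The RelB-DBDB 8 h library stood apart, with 6.26% of its reads on mitochondrial genes against 1.74% to 2.41% in the other 7 libraries. In this library a scaling factor from the bulk of the genes (TMM, trimmed mean of M values) was 0.798, against 0.965 to 1.10 in the others.

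**Figure D1:**
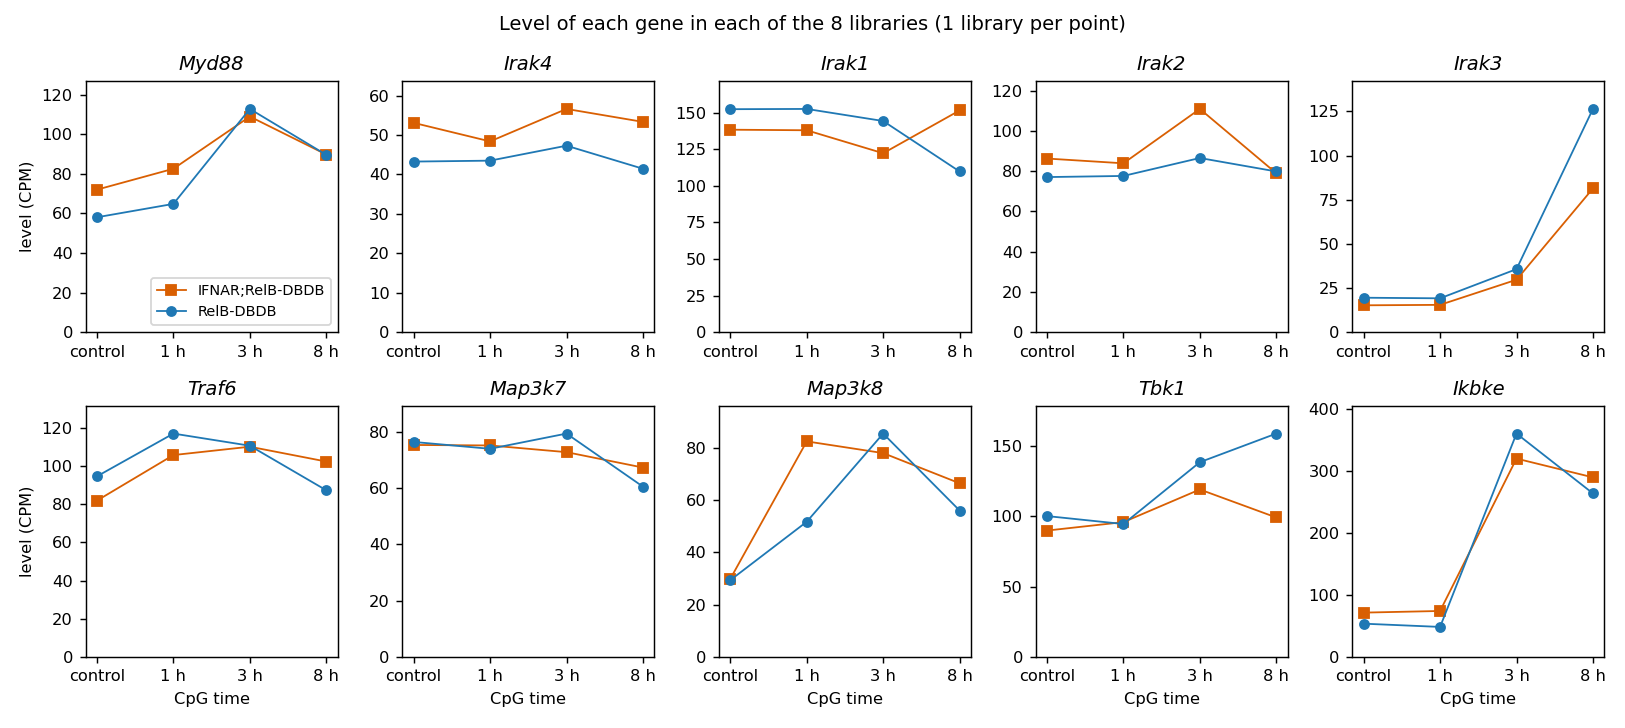
Level of each of the 10 genes in CPM (vertical axis, from 0) in control cells and after 1, 3 and 8 h of CpG (horizontal axis, not to scale in time), with orange squares for IFNAR;RelB-DBDB and blue circles for RelB-DBDB, 1 library per point and no error bar. Ikbke, Irak3, Map3k8 and Myd88 stand furthest above their controls at 3 h, as ratios, in both genotypes, while Irak4 and Map3k7 vary little.

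Set against the length of the longest protein-coding transcript, the order of the 10 genes changed with time. Ikbke had 14.8 to 22.7 CPM per kb in the control and 1 h libraries and 81.1 to 111 CPM per kb in the 3 and 8 h libraries. It ranked 5th in both controls, 6th at 1 h in IFNAR;RelB-DBDB cells and 7th at 1 h in RelB-DBDB cells, and first in all 3 and 8 h libraries. Its median over the 8 libraries, 51.9 CPM per kb, lies between these separate groups of values. By the same median Myd88 followed with 43.9 CPM per kb (range 29.6 to 57.5), then Irak1 with 36.8 (28.6 to 39.7) and Tbk1 with 33.0 (29.7 to 52.5). Irak2 had 25.6 CPM per kb (24.1 to 34.7), Map3k8 23.9 (11.4 to 33.3) and Traf6 16.9 (13.3 to 19.0). Irak4 had 13.9 CPM per kb (12.1 to 16.5), Map3k7 12.9 (10.5 to 13.8) and Irak3 7.94 (4.91 to 40.8). Irak3 ranked last in the control, 1 h and 3 h libraries of both genotypes, and at 8 h it ranked 5th in IFNAR;RelB-DBDB and 4th in RelB-DBDB cells. The ranges of every pair of neighbours in this order overlapped. The length used matters for Ikbke, whose exons together span 9018 bases but whose longest transcript has 3251 bases, and over the joined exons it ranked 4th, after Myd88, Irak1 and Tbk1.

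Of the 10 genes, 4 were called at 3 h of CpG against control and 3 of these again at 8 h, and each of them rose. Of all genes tested, 7.51% were called at 3 h and 21.6% at 8 h. Tests were made with limma on log2(CPM + 1) over all 8 libraries, so that the genotypes stand in for repeats of a condition, and a gene was called at a Benjamini-Hochberg adjusted p under 0.05 over the 12297 genes tested. At 1 h no member was called, when 8 of all genes tested were (0.0651%; 177 at an unadjusted p under 0.05, and 11 called by limma-voom on the whole reads, an analysis added after the data were seen). At 3 h Ikbke, Map3k8, Irak3 and Myd88 rose and none fell, which is 4 of 10 (40%), when 7.51% of all genes were called, 448 higher and 476 lower. At 8 h Irak3, Ikbke and Map3k8 rose and none fell, when 21.6% of all genes were called, 801 higher and 1853 lower. Between 3 and 8 h only Irak3 was called, and it rose, when 1.71% of all genes were called, 78 higher and 132 lower. The median log2 change of the members was 0.38 at 3 h and 0.25 at 8 h, while that of all genes tested was -0.16 and -0.23. With TMM factors the median of all genes moved to -0.031 at 3 h and -0.0033 at 8 h, the calls at 3 h split into 573 higher and 388 lower, and those at 8 h into 1208 higher and 1131 lower. TMM left the 4 member calls at 3 h and added Myd88 at 8 h. Leaving the RelB-DBDB 8 h library out gave 6 members called at 3 h, all higher, when 35.1% of all genes were called, and 3 at 8 h, when 26.3% were. Without the IFNAR;RelB-DBDB 8 h library 34.9% of all genes were called at 3 h and 57.4% at 8 h. There the 8 h changes of members went both ways, with a log2 change of -0.49 for Irak1, -0.34 for Map3k7 and 0.68 for Tbk1. Leaving out RelB-DBDB 3 h gave no member called at 3 h, when 0.0976% of all genes were. Leaving out IFNAR;RelB-DBDB 3 h, the IFNAR;RelB-DBDB control or the RelB-DBDB control gave 1 member called at 3 h, when 0.390%, 1.02% and 0.732% of all genes were. When 1 library of a condition is left out, the other library of that condition is fitted exactly. In comparisons of other conditions, and in both genotype comparisons, the fits without either library of a condition are therefore nearly the same. Their results are not separate checks. In a bulk sample fewer cells of a type and less RNA per cell cannot be told apart.

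**Figure D2:**
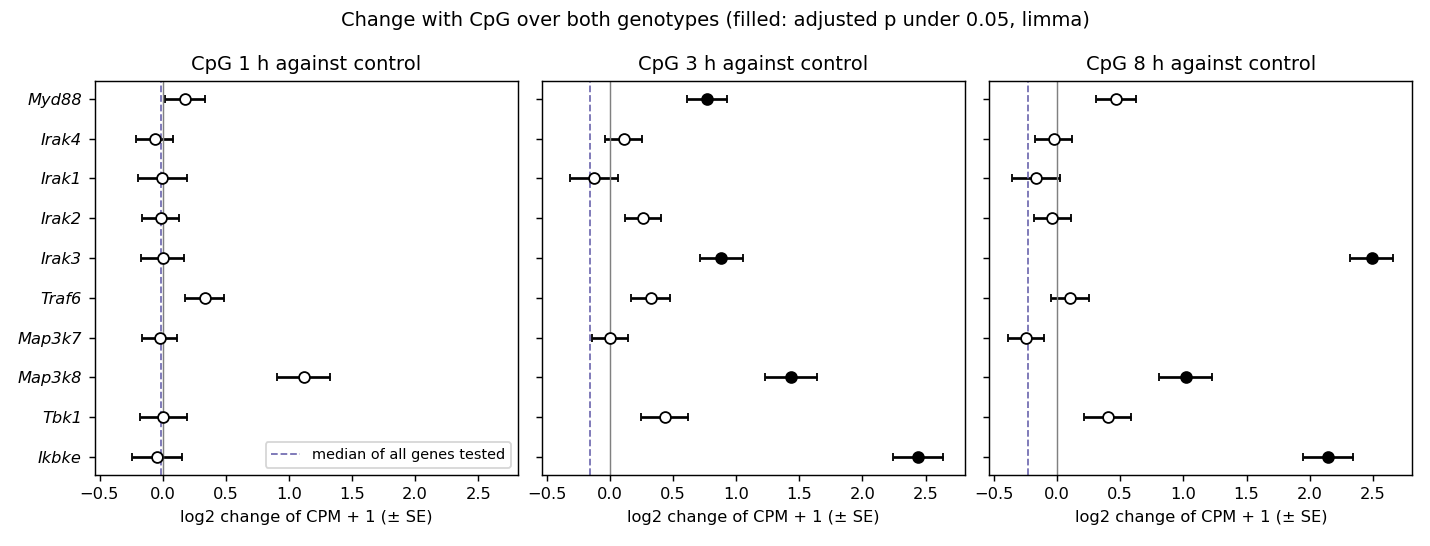
Log2 change of CPM + 1 (horizontal axis) at 1, 3 and 8 h of CpG against control for each gene, fitted over both genotypes, with bars of 1 standard error, filled points for calls at an adjusted p under 0.05 and a dashed line at the median of all genes tested. Calls are absent at 1 h, 4 at 3 h and 3 at 8 h, all to the right of 0.

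The start sites of 3 of the called genes are shown with that of Map3k7, which was not called, so that their proximal sequences can be compared. RefSeq lists promoter windows (GRCm38.p6, the assembly called mm10, from 250 bases before to 50 bases after the start site, 5′ to 3′ on the gene's strand) for 9 of the 10 genes, and Map3k8 is named only. Matches on either strand to 3 motifs are in capitals. These were the interferon-stimulated response element (GAAANNGAAA), a loose form of the AP-1 site (TGANTCA, with any base at its centre) and the κB site. Of 27025 promoters of this length, 3.49% hold the first, 7.93% the second and 4.35% the third. Among the 9152 of these that belong to genes tested here the shares are 3.21%, 4.97% and 5.18%. A match is a description of letters and not a shown binding site.
Myd88, chr9:119339969-119340268, minus strand: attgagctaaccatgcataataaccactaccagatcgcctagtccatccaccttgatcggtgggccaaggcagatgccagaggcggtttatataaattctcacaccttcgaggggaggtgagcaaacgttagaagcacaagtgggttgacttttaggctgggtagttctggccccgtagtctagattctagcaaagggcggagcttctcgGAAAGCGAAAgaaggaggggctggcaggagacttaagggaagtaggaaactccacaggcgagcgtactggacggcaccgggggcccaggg
Ikbke, chr1:131279514-131279813, minus strand: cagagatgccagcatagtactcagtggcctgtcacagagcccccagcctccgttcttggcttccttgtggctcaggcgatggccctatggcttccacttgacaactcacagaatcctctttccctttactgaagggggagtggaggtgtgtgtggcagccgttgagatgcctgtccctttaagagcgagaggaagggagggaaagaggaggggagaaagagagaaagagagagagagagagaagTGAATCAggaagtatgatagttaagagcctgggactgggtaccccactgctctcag
Irak3, chr10:120202081-120202380, minus strand, the outer of 2 listed start sites: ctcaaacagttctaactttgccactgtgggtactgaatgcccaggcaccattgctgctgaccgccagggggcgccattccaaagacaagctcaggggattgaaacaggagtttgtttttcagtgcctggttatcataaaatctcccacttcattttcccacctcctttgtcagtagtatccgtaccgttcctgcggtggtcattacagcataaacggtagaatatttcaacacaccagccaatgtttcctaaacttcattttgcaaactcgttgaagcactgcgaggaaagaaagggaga
Map3k7, chr4:31963857-31964156, plus strand: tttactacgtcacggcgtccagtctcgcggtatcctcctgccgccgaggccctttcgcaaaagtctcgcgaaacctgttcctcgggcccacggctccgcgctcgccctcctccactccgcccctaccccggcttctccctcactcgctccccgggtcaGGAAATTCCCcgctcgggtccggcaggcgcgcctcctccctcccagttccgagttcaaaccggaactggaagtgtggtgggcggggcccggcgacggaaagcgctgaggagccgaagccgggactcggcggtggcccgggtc
The Myd88 window holds 1 response element match, beginning 40 bases before the start site. This start site lies inside the annotated gene, whose 5′ end on the minus strand is at 119341411, so that the window is not at that end. The Ikbke window holds 1 match to the loose AP-1 form, beginning 6 bases before the start site. Its central base is A, whereas the AP-1 consensus has C or G there. The Irak3 window shown and that of its inner start site hold none of the 3 motifs. The Map3k7 window holds 1 κB match, beginning 92 bases before the start site. The windows of Irak4, Irak1, Irak2, Traf6 and Tbk1 hold none.

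Myd88 (chr9:119335934-119341411, minus strand, mm10), the adaptor on which the receptor complex is built, rose at 3 h. From control to 8 h its levels were 72.0, 82.5, 109 and 89.7 CPM in IFNAR;RelB-DBDB cells, and 58.0, 64.8, 113 and 89.5 CPM at the same points in RelB-DBDB cells. Both genotypes had their highest value at 3 h, and neither the 3 h nor the 8 h libraries overlapped the controls. The log2 change was 0.77 ± 0.16 (SE) at 3 h (limma, adjusted p = 0.0335) and 0.47 ± 0.16 at 8 h (limma, adjusted p = 0.0747). The 8 h value was called with TMM factors (limma, adjusted p = 0.0354), with median-ratio factors and with limma-voom. The 3 h call rested on several libraries: it was lost when a control, a 1 h or a 3 h library of either genotype was left out (limma, adjusted p of 0.0721 to 0.382), and with no filter on low genes (0.061).

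Among the IRAK genes, only Irak3 passed the test. Irak3 (chr10:120141648-120202130, minus strand), whose protein is a pseudokinase that restrains MyD88 signalling, had 15.2, 15.5, 29.7 and 81.4 CPM from control to 8 h in IFNAR;RelB-DBDB cells. In RelB-DBDB cells it had 19.5, 19.2, 35.7 and 126 CPM. The level was flat at 1 h and stepped up at 3 h and again at 8 h in both genotypes, with no overlap between the libraries of successive times from 1 h on. The log2 change was 0.88 ± 0.17 at 3 h (limma, adjusted p = 0.0269) and 2.49 ± 0.17 at 8 h (limma, adjusted p = 0.000358). From 3 to 8 h it was 1.61 ± 0.17 (limma, adjusted p = 0.0115). Single libraries gave an 8 h level 5.35 times the control in IFNAR;RelB-DBDB cells (95% interval 4.44 to 6.47, covering counting error only) and 6.48 times in RelB-DBDB cells (5.64 to 7.49). The 8 h rise was called whichever library was left out. The 3 h rise and the step from 3 to 8 h were each lost when a control, a 1 h or a 3 h library of either genotype was left out, with limma adjusted p of 0.0694 to 0.304 and 0.0514 to 0.287. For the step from 3 to 8 h, far fewer of all genes were called in these fits than with all 8 libraries.

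The other IRAK genes did not pass the test at any time. Irak4 (chr15:94543643-94581815, plus strand), the first kinase of the complex, had 53.1, 48.4, 56.6 and 53.3 CPM in IFNAR;RelB-DBDB cells from control to 8 h and 43.3, 43.5, 47.3 and 41.5 CPM in RelB-DBDB cells. Its highest value was 1.37 times its lowest, and the level was higher in IFNAR;RelB-DBDB cells at every point. Irak1 (chrX:74013914-74023918, minus strand), which IRAK4 phosphorylates, had 138, 138, 122 and 151 CPM in IFNAR;RelB-DBDB cells and 152, 152, 144 and 109.7 CPM in RelB-DBDB cells. The genotypes went apart at 8 h, with the highest IFNAR;RelB-DBDB value and the lowest RelB-DBDB value of each series. The log2 change of Irak1 at 8 h was -0.17 ± 0.19 (limma, adjusted p = 0.531) and at 3 h -0.13 ± 0.19, and both changed sign with TMM factors, to 0.086 and 0.011. The 8 h value was -0.49 and called when IFNAR;RelB-DBDB 8 h was left out (limma, adjusted p = 0.00296), and 0.15 when RelB-DBDB 8 h was left out. Irak2 (chr6:113638467-113695026, plus strand), which sustains late signalling, had 86.2, 83.9, 111 and 78.9 CPM in IFNAR;RelB-DBDB cells and 77.0, 77.6, 86.5 and 79.8 CPM in RelB-DBDB cells. It was highest at 3 h in both genotypes, with a log2 change of 0.26 ± 0.15 at 3 h (limma, adjusted p = 0.321). With TMM factors the RelB-DBDB series of Irak2 was highest at 8 h instead, at 1.36 times its control, against 1.22 times at 3 h.

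Traf6 and Map3k7, which carry the signal from the receptor complex to the IKK and MAP kinases, were not called at any time. Traf6 (chr2:101678429-101701669, plus strand) had 81.9, 106, 110.2 and 102 CPM in IFNAR;RelB-DBDB cells from control to 8 h and 94.6, 117, 111 and 87.3 CPM in RelB-DBDB cells. In IFNAR;RelB-DBDB cells all CpG libraries were above the control, and in RelB-DBDB cells the 8 h library was below it. With TMM factors the 8 h level was above the control in both genotypes, at 1.36 times in IFNAR;RelB-DBDB and 1.21 times in RelB-DBDB cells. The log2 change was 0.33 ± 0.15 at 1 h (limma, adjusted p = 1) and 0.32 ± 0.15 at 3 h (limma, adjusted p = 0.249). The 3 h value was called when either 8 h library was left out (limma, adjusted p of 0.0197 without IFNAR;RelB-DBDB and 0.0185 without RelB-DBDB). Map3k7 (chr4:31964097-32023467, plus strand), which encodes TAK1, had 75.4, 75.2, 72.8 and 67.4 CPM in IFNAR;RelB-DBDB cells and 76.5, 74.0, 79.4 and 60.6 CPM in RelB-DBDB cells. Its highest value was 1.31 times its lowest, the smallest range of the 10 genes, and the lowest value of each genotype was at 8 h. With TMM factors the lowest RelB-DBDB value was at 1 h instead, at 0.984 times the control, and the 8 h level was 1.04 times it. The log2 change at 8 h was -0.25 ± 0.14 (limma, adjusted p = 0.230), close to the median of all genes, and it was 0.0076 with TMM factors. It was called without the IFNAR;RelB-DBDB 8 h library (limma, adjusted p = 0.0272).

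Map3k8, which encodes TPL2, the kinase that p105 holds inactive until IKK releases it, rose at 3 and 8 h, and its log2 change at 1 h was the largest of the 10 genes. From control to 8 h it had 29.9, 82.6, 78.1 and 66.5 CPM in IFNAR;RelB-DBDB cells, and 29.4, 51.8, 85.6 and 56.1 CPM in RelB-DBDB cells. Every CpG library was above both controls. The IFNAR;RelB-DBDB series was highest at 1 h and the RelB-DBDB series at 3 h. The log2 change was 1.12 ± 0.21 at 1 h, which was not called (limma, adjusted p = 0.439, unadjusted p = 0.00103). It was 1.43 ± 0.21 at 3 h (limma, adjusted p = 0.0107) and 1.02 ± 0.21 at 8 h (limma, adjusted p = 0.0176). The 3 h call was lost without the IFNAR;RelB-DBDB control (limma, adjusted p = 0.118) or 3 h library (0.0835) and without the RelB-DBDB control (0.0969) or 3 h library (0.178). The 8 h call was lost without the control of IFNAR;RelB-DBDB (limma, adjusted p = 0.124) or of RelB-DBDB (0.111).

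Of the IKK-related kinase genes, Ikbke rose at 3 and 8 h and Tbk1 was not called, and the difference between these 2 genes was not tested. Ikbke (chr1:131254343-131279606, minus strand), which encodes IKKε and is known as an inducible NF-κB target in macrophages, had 71.3, 73.9, 319.9 and 289.6 CPM in IFNAR;RelB-DBDB cells from control to 8 h and 53.4, 48.2, 360.3 and 264 CPM in RelB-DBDB cells. The 1 h libraries lay close to their controls and the 3 and 8 h libraries far above them in both genotypes. The log2 change was 2.44 ± 0.20 at 3 h (limma, adjusted p = 0.00198) and 2.14 ± 0.20 at 8 h (limma, adjusted p = 0.00107). The 3 h call was lost without the RelB-DBDB 3 h library (limma, adjusted p = 0.0701), and the 8 h call was made whichever library was left out. Tbk1 (chr10:121546455-121586787, minus strand), whose kinase is made in most cell types, had 89.8, 95.8, 119 and 99.1 CPM in IFNAR;RelB-DBDB cells and 100.1, 94.5, 138 and 159 CPM in RelB-DBDB cells. Both genotypes were above their controls at 3 h, and at 8 h the RelB-DBDB library was the highest of all 8. The log2 change of Tbk1 was 0.43 ± 0.18 at 3 h (limma, adjusted p = 0.206) and 0.40 ± 0.18 at 8 h (limma, adjusted p = 0.150). It was called at 3 h without the IFNAR;RelB-DBDB 8 h library (limma, adjusted p = 0.00659) or the RelB-DBDB 8 h library (0.00635), and at 8 h without the IFNAR;RelB-DBDB 8 h library (0.00119), with a log2 change of 0.68. Its 8 h value was 0.12 when RelB-DBDB 8 h was left out.

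Loss of IFNAR on the RelB-DBDB background was compared over the 4 conditions, and no member was called, when 6.25% of all genes tested were, 565 higher and 204 lower in IFNAR;RelB-DBDB (454 higher and 323 lower with TMM factors, which brought the median log2 difference of all genes to -0.0055, against 0.11 without them). Limma-voom called no member either, and Irak3 and Irak4 had an unadjusted p under 0.05, which makes 2 of 10, beside 2759 of all genes tested (22.4%). Irak3 was lower in IFNAR;RelB-DBDB cells in each of the 4 conditions, with a log2 difference of -0.38 ± 0.12 (limma, adjusted p = 0.124). Irak4 was higher in IFNAR;RelB-DBDB cells in each of the 4 conditions, with a log2 difference of 0.26 ± 0.10 (limma, adjusted p = 0.192). Its ratio at 8 h, 1.29 times the RelB-DBDB level, was 1.01 after TMM factors. Tbk1 had a log2 difference of -0.26 ± 0.13 (limma, adjusted p = 0.295) and Ikbke of 0.24 ± 0.14 (limma, adjusted p = 0.343). The interferon-stimulated genes Isg15 and Rsad2 were not called either, at -1.57 (limma, adjusted p = 0.208) and -2.51 (limma, adjusted p = 0.296). A missing call in this comparison therefore does not show that a gene is unaffected by loss of IFNAR. Markers of T and NK cells moved with genotype, with 2 of 4 reaching 1 CPM in some library and a sum of 28.4 to 31.0 CPM in IFNAR;RelB-DBDB cells and 5.24 to 7.79 CPM in RelB-DBDB cells, Ncr1 being at 0 in 7 of the 8 libraries. The 4 markers of mast cells and basophils all reached 1 CPM in some library. They summed to 13.8 to 21.9 CPM in IFNAR;RelB-DBDB cells and 4.97 to 14.9 CPM in RelB-DBDB cells. Of these, Mcpt8 was at 6.01 to 8.60 CPM in IFNAR;RelB-DBDB and 0.484 to 1.79 CPM in RelB-DBDB cells. Kit went the other way in controls and at 1 and 3 h. Its levels there were 5.43, 7.05 and 3.28 CPM in IFNAR;RelB-DBDB cells, against 10.7, 11.7 and 3.99 CPM in RelB-DBDB cells. Of 5 macrophage and monocyte markers, 4 were among the gene names, Adgre1 being absent. These 4 summed to 326 to 554 CPM in IFNAR;RelB-DBDB cells and 395 to 518 CPM in RelB-DBDB cells. Of these Mertk was at 2.21 to 5.28 CPM in IFNAR;RelB-DBDB and 14.3 to 24.3 CPM in RelB-DBDB cells. Ly6c2 went the other way in each condition, at 23.4 CPM in IFNAR;RelB-DBDB controls against 7.80 CPM in RelB-DBDB controls. The part of these markers' cells in the genotype differences was not tested.

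Within a condition the genotypes have 1 library each, so that their ratios have counting intervals and no test. A member was counted here when its ratio was at least 1.5-fold in either direction. In controls no member was, when 12.1% of all genes were. At 1 h 2 members were, both higher in IFNAR;RelB-DBDB, when 14.3% of all genes were. These were Map3k8, at 1.60 times the RelB-DBDB level (95% interval 1.40 to 1.82), and Ikbke, at 1.53 times (1.34 to 1.76). After TMM factors these ratios were 1.51 and 1.45, the second under 1.5-fold. At 3 h no member was, when 13.9% of all genes were. At 8 h 2 members were, both lower in IFNAR;RelB-DBDB, when 40.9% of all genes were, with a median log2 ratio of all genes of 0.30. Tbk1 stood at 0.624 times the RelB-DBDB level (0.560 to 0.694) and Irak3 at 0.644 times (0.571 to 0.723). After TMM factors these ratios were 0.492 and 0.508. Irak1 went the other way at 8 h, at 1.38 times (1.26 to 1.51), and at 1.09 times after TMM factors. The high share of mitochondrial reads in the RelB-DBDB 8 h library goes with all ratios at 8 h, and its part in them was not tested.

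**Figure D3:**
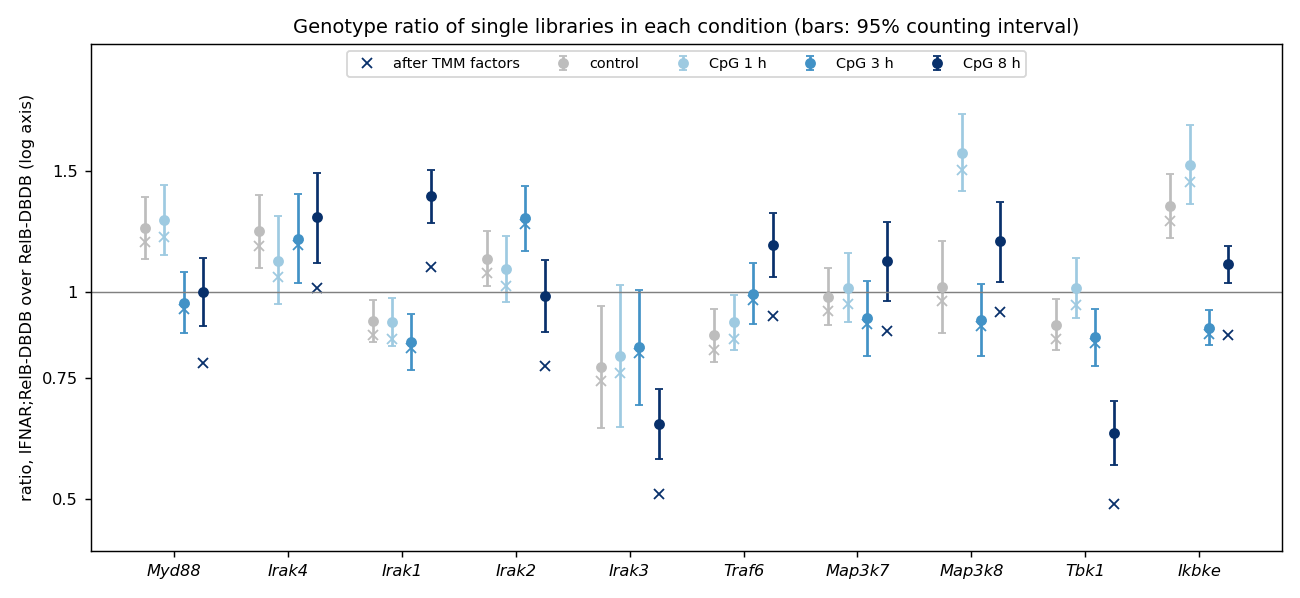
Ratio of the IFNAR;RelB-DBDB to the RelB-DBDB library (vertical log axis) for each gene in each condition, with light to dark points from control to 8 h of CpG, bars of the 95% interval of a ratio of counts, and crosses for the ratio after TMM factors. Tbk1 and Irak3 at 8 h lie lowest, at 0.624 and 0.644, and Map3k8 at 1 h lies highest, at 1.60.

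The genotype difference at 3 and 8 h was also set against that in controls and at 1 h, in a model with 2 residual degrees of freedom. No gene was called (0% of 12297 by limma and by limma-voom, with 874 and 986 at an unadjusted p under 0.05). This takes in interferon-stimulated genes with large differences, such as Rsad2 at -6.26 ± 1.06 (limma, adjusted p = 0.376) and Ifit1 at -5.76 ± 0.73 (limma, adjusted p = 0.310). The lack of a call for a member therefore does not show that loss of IFNAR leaves it unchanged. Ikbke was 1.33 and 1.53 times the RelB-DBDB level in IFNAR;RelB-DBDB controls and at 1 h, and 0.888 and 1.10 times at 3 and 8 h. After TMM factors these ratios were, in the same order, 1.27, 1.45, 0.870 and 0.866. The log2 difference of Ikbke between late and early was -0.53 ± 0.21 (limma, adjusted p = 0.639), and Ikbke was the only member with an unadjusted p under 0.05. Tbk1 had a late against early difference of -0.38 ± 0.23 (limma, adjusted p = 0.639). Leaving out a 3 h library left 1 residual degree of freedom and gave 5 member calls for either genotype, when 45.8% of all genes were called without IFNAR;RelB-DBDB 3 h and 45.9% without RelB-DBDB 3 h. Leaving out an 8 h library gave 1 member call, when 5.59% of all genes were called without IFNAR;RelB-DBDB 8 h and 5.70% without RelB-DBDB 8 h. Ikbke was among them each time (limma, adjusted p of 0.013 and 0.0131 without the IFNAR;RelB-DBDB and the RelB-DBDB 3 h library, 0.000588 and 0.00046 without their 8 h libraries), and Tbk1 was called without either 3 h library (0.000218 and 0.000217).

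The wider pathway was read from 67 other genes, of which 66 were tested, Sarm1 being too low. At 1 h 2 rose and none fell, which is 3.03% of those tested, beside 0.0651% of all genes. At 3 h 5 rose and 1 fell, and at 8 h 6 rose and 9 fell, which is 9.09% and 22.7% of those tested, beside 7.51% and 21.6% of all genes. The median log2 change of the 66 genes was -0.0097 at 3 h and -0.11 at 8 h. The risers were led by inhibitors of NF-κB. Tnfaip3, a ubiquitin-editing enzyme that ends TRAF6 signalling, had 156, 701, 590 and 422 CPM from control to 8 h in IFNAR;RelB-DBDB cells and 147, 445, 634 and 389.9 CPM in RelB-DBDB cells. Its log2 change was 1.88 at 1 h (limma, adjusted p = 0.0328), 2.01 at 3 h (0.00264) and 1.42 at 8 h (0.00414). The call at 1 h was lost with TMM factors (limma, adjusted p = 0.0511), with median-ratio factors (0.0509) and with no filter on low genes (0.188). Nfkbia, the inhibitor IκBα, rose by 1.43, 1.51 and 1.23 on the log2 scale at the same times, and its 1 h call too was lost with no filter (0.188). Tnip1, which works with Tnfaip3, rose by 1.23 at 3 h and 1.36 at 8 h. The ligase gene Traf3 rose by 0.95 at 3 h (not called with no filter, limma adjusted p = 0.0903), and Ticam2, an adaptor of TLR4, rose by 1.15 at 8 h.

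Genes that fell at 8 h were led by Il1rl1, the IL-33 receptor, which also uses MyD88. It had 28.5, 27.2, 20.8 and 7.00 CPM from control to 8 h in IFNAR;RelB-DBDB cells and 12.4, 11.7, 7.86 and 1.64 CPM in RelB-DBDB cells. It fell by 2.11 on the log2 scale at 8 h against control (limma, adjusted p = 0.00133) and by 1.60 between 3 and 8 h (0.0232, and 0.0714 with no filter). Peli2, a ligase that acts on IRAK proteins, fell by 1.20 at 3 h (not called with no filter, limma adjusted p = 0.0892) and 1.63 at 8 h. Sigirr, an inhibitory receptor of the same family, fell by 1.36 at 8 h (0.0487) and Tab1, the partner of TAK1, by 1.13 (0.0122). Sigirr had 48.5, 40.8, 20.9 and 32.9 CPM from control to 8 h in IFNAR;RelB-DBDB cells and 35.9, 27.9, 14.4 and 7.17 CPM in RelB-DBDB cells. Its log2 change at 8 h was -2.14 without IFNAR;RelB-DBDB 8 h and -0.58 without RelB-DBDB 8 h. The Sigirr call was lost with TMM factors (limma, adjusted p = 0.0613), with median-ratio factors (0.0635) and with no filter (0.101).

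By genotype 8 of the 66 pathway genes were called (12.1%), beside 6.25% of all genes, and 5 of these belong to the 10 genes of sensing and trafficking. Il1rl1 was higher in IFNAR;RelB-DBDB, with a log2 difference of 1.30 (limma, adjusted p = 0.00457), as were Irf1, an interferon regulatory factor (0.77), Tbkbp1, an adaptor of TBK1 (0.66), and Slc15a4, an endolysosomal transporter (0.66). Tlr7, the RNA receptor of the endosome, was lower in IFNAR;RelB-DBDB (-1.52), as were the endosomal proteases Ctsl (-1.39), Lgmn (-0.50) and Ctsb (-0.41). The call for Irf1 was lost with TMM factors (limma, adjusted p = 0.0825), with median-ratio factors (0.0848) and with no filter (0.0799). With no filter the calls of Tbkbp1, Slc15a4, Tlr7, Lgmn and Ctsb were lost too (0.0506 to 0.175), and that of Ctsb also with a pseudocount of 5 (0.0514). The markers of T and NK cells and of mast cells and basophils given above, higher in sum in IFNAR;RelB-DBDB controls and at each CpG time, move with the Il1rl1 difference, and their part in it was not tested. Tlr7 had 4.76, 4.24, 4.55 and 5.39 CPM from control to 8 h in IFNAR;RelB-DBDB cells and 11.1, 11.7, 12.8 and 33.5 CPM in RelB-DBDB cells. The share of members called and that of the pathway genes were not tested against each other. Of the 24 pathway calls named here, 4 were made whichever library was left out, those of Tnfaip3, Tnip1, Nfkbia and Il1rl1 at 8 h against control, and the other 20 were each lost without 2 to 6 of the 8 libraries. The calls of Ticam2, Peli2 and Tab1 at 8 h were lost without either control, and the genotype calls of Il1rl1, Ctsl and Tlr7 without either 3 h library. For the genotype comparison the fits without either library of a condition are nearly the same, so that such losses come in pairs and are not separate.

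**Figure D4:**
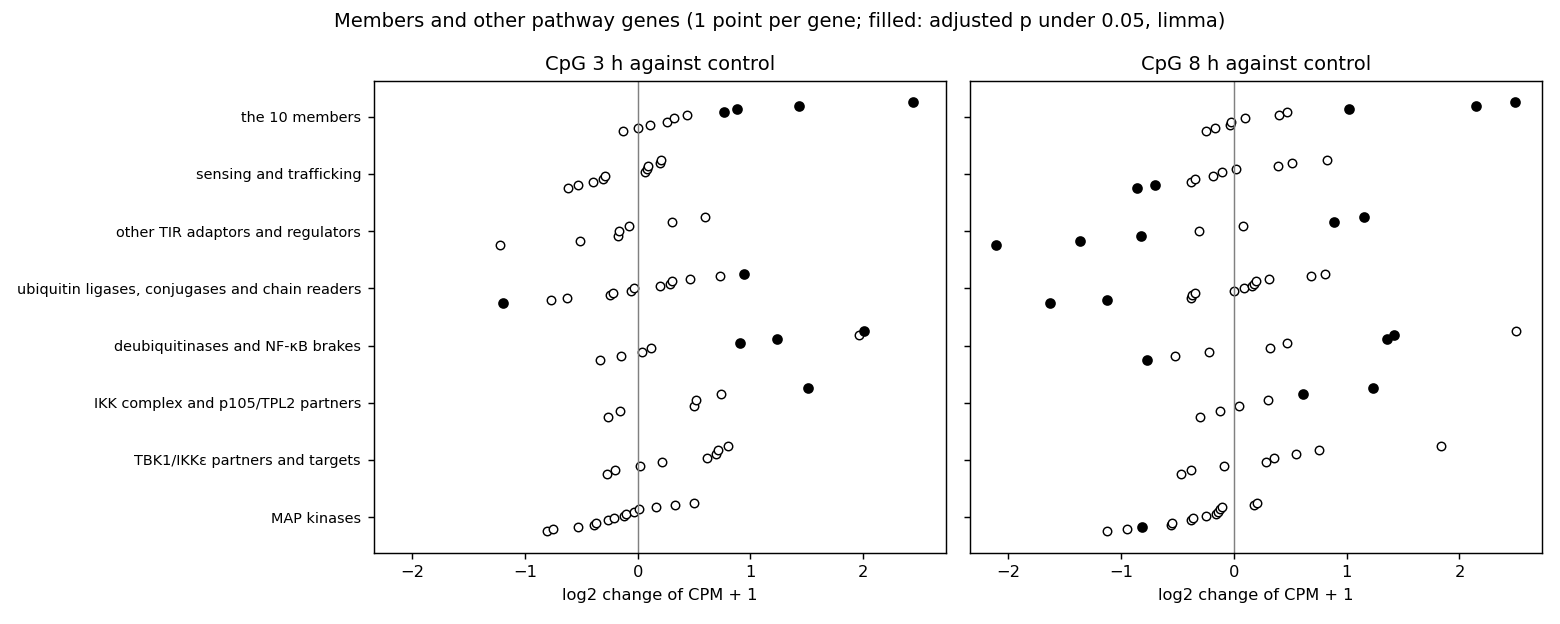
Log2 change of CPM + 1 against control (horizontal axis) at 3 h (left) and 8 h (right) for the 10 members and for 7 lists of other pathway genes (rows), 1 point per gene, spread vertically within a row by rank alone, with filled points for calls at an adjusted p under 0.05. Called members lie only to the right of 0, while the other pathway genes called at 8 h lie on both sides, 6 to the right and 9 to the left.

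The genes whose values ran most like those of the 4 members called against control were looked up over the 8 libraries. Likeness was measured by Pearson's r of log2(CPM + 1) as a description, over 8 libraries that form the 2 time series. For Myd88 it was highest with Icam1 (r = 0.980), Akap13 (0.978) and Enah (0.968). For Map3k8 it was highest with Tnfaip3 (0.979), Dusp14 (0.974) and Tnfsf9 (0.973), which were also above control at 1 h in both genotypes. For Ikbke it was highest with Plagl2 (0.997), Foxp4 (0.993) and Pik3r5 (0.993), and 103 genes had an r over 0.95. For Irak3 it was highest with M6pr (0.995), Itgb8 (0.995) and Pik3ap1 (0.991), and 80 genes had an r over 0.95. Among the members themselves, Myd88 and Ikbke were closest to each other (r = 0.913), and Myd88 and Map3k8 had an r of 0.807.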

How the data were processed

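Per the labels' protocols, part of the culture medium was replaced on days 3 and 6, and stranded mRNA libraries gave single-end reads of 50 bp. The submitters' processing notes name cutadapt, edgeR and mm10. Which aligner, counter and annotation they used, and whether strand was used in counting, is not given in the sources used here, so reads of overlapping or antisense genes may be mixed.

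The deposited signal is CPM plus 1, which was tested on the file. Every one of the 8 columns has a minimum of 1, sums to 1000000 once 1 is taken off each value, and has 100% of these differences at whole multiples of 1 read within 0.01 read. Of 27178 rows, 2161 have no gene name (0.0737% to 0.131% of reads) and were not tested. Another 16 columns, of other samples, entered no step. A count of 0 allows up to 3 reads, or 0.0806 to 0.808 CPM. Intervals and floors cover counting error only.

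The filter kept genes that reached 1 CPM in 2 or more libraries. An additive limma model (version 3.58.1, R 4.3.3, trended eBayes) of log2(CPM + 1) on genotype and condition left 3 residual degrees of freedom. Benjamini-Hochberg adjustment ran over all 12297 genes. On this scale the change of low genes is understated. Nothing in the labels says that libraries came from separate cultures or animals, so the spread between these libraries may be technical. In the additive model this spread is the disagreement between the genotypes over the conditions. It also takes in any effect of IFNAR loss on the response to CpG, and p-values measure only this spread. The fit assumes that each lone library varies as the rest do. Ratios of single libraries have exact 95% intervals for 2 Poisson counts. The late-phase test added a term for genotype at 3 and 8 h.

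The members, the pathway list and the markers were chosen with earlier results of these data known. All 10 members are named. From the pathway list up to 4 genes that rose and 4 that fell with the largest change are named per comparison, and for each member called against control the 3 genes with the highest r. Coordinates and lengths come from GENCODE M21 (mm10) and promoters from RefSeq (GRCm38.p6). Alternatives were a pseudocount of 5, no filter, TMM and median-ratio factors, limma-voom on the whole reads (added after the data were seen) and leaving out each library. Figures were drawn with matplotlib 3.10.9.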

Additional observations from a re-analysis of the deposited data

Results flagged for a closer look

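The difference between genotypes in Traf6 at 8 h was singled out because the libraries went opposite ways. The 8 h level was 1.25 times the control in IFNAR;RelB-DBDB cells (95% counting interval 1.11 to 1.41) and 0.923 times the control in RelB-DBDB cells (0.859 to 0.992). With TMM factors the ratios were 1.36 in IFNAR;RelB-DBDB and 1.21 in RelB-DBDB cells, so that the libraries no longer went opposite ways. This pair of ratios was not tested against each other, since each rests on single libraries. The late against early difference of Traf6, which also takes in the 3 h libraries, was 0.29 ± 0.20 on the log2 scale (limma, adjusted p = 0.643). The part of the high mitochondrial share of the RelB-DBDB 8 h library, 6.26%, was not tested.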

How the results depend on the processing

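Of the 8 calls of members, Ikbke and Irak3 at 8 h were kept under every alternative run. Among the 53 named gene results, 534 of the recomputed values kept direction and side of the threshold, 130 lost the call, 17 gained it and 8 changed sign. The sign changes were all in Irak1 and Map3k7. For Irak1 the log2 change at 3 h was 0.011 with TMM and 0.032 with median-ratio factors, and at 8 h 0.086 and 0.099. Leaving out 1 library gave -0.28 to 0.021 at 3 h and -0.49 to 0.15 at 8 h. For Map3k7 at 8 h it was 0.0076 with TMM and 0.021 with median-ratio factors. These factors divide each library's values by its own scaling factor, and the RelB-DBDB 8 h library has the lowest.

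With no filter on low genes, 478 genes were called at 3 h, 1629 at 8 h, 39 between 3 and 8 h and 413 by genotype. Limma-voom called 4312 at 8 h and 371 between 3 and 8 h, and the cause was not tested. Leaving out 1 library at a time gave 5 to 35 genes at 1 h, 12 to 4313 at 3 h, 336 to 7056 at 8 h, 0 to 5015 between 3 and 8 h, 124 to 2040 by genotype and 69 to 5641 in the late against early difference. By genotype the lowest count came without IFNAR;RelB-DBDB 3 h, and between 3 and 8 h it was the same without the 3 h library of either genotype. The other lowest counts came without IFNAR;RelB-DBDB 1 h (1 h), RelB-DBDB 3 h (3 h) and RelB-DBDB control (8 h, and late against early). The highest came without RelB-DBDB 8 h (1 h, 3 h and genotype), IFNAR;RelB-DBDB 8 h (8 h, and between 3 and 8 h) and RelB-DBDB 3 h (late against early). The number of members called ranged over 0 to 6 at 3 h, 2 to 7 at 8 h, 0 to 4 between 3 and 8 h, and 0 to 5 in the late against early difference. In the same fits the share of all genes called ranged over 0.0976% to 35.1% at 3 h and 2.73% to 57.4% at 8 h. This share was 0% to 40.8% between 3 and 8 h, and 0.561% to 45.9% in the late against early difference. The member counts were not tested against these shares. With at most 3 residual degrees of freedom the estimate of spread is itself uncertain, and a fit without 1 library has 1 fewer. For a comparison of other conditions or of genotypes, leaving out either library of a condition gives nearly the same fit.

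The planned quasi-likelihood count test was not run, and limma-voom on the whole reads worked back from the deposited values took its place. The libraries with fewest reads, IFNAR;RelB-DBDB at 3 and 8 h, limit the precision of low genes. The additive model matches the genotypes within each condition. A pairing by culture or animal was not possible, because the labels do not give these.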
